A study of Mus musculus with 18 samples.

Results

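The matrix metalloproteinases (MMPs), the ADAMTS proteases and the tissue inhibitors of metalloproteinases (TIMPs) were examined in 2 cell lines of mouse lung cancer after the kinase DSTYK, a dual serine/threonine and tyrosine kinase, was lowered or raised. Members were chosen by name alone: protein-coding genes whose symbol is Mmp, Adamts or Timp followed by its number. This gave 45 genes, of which 22 are Mmp, 19 are Adamts and 4 are Timp genes, out of 36047 genes with a listed transcript. Mmp1a has a matching symbol but is annotated as a polymorphic pseudogene and was left out. It held 33 estimated counts over the 3 libraries of LLC with the empty vector, 54 over the 3 LLC libraries with the sh3 construct, and 0 over the 12 UN-SCC679 libraries.

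LLC (Lewis lung carcinoma, strain C57BL/6) is labelled lung adenocarcinoma, and UN-SCC679 (strain A/J) is labelled lung squamous carcinoma. Each line was sequenced with the sh3 construct against DSTYK in the TPLKO vector and with the empty TPLKO vector, and all 12 of these libraries, controls included, came from cells given doxycycline. UN-SCC679 was also sequenced with pLENTI6 carrying wild-type DSTYK (OE_DSTYKwt, here OE) and with empty pLENTI6, for which the treatment is entered as N.A. Each of the 6 groups has 3 libraries. The labels name 1 construct for lowering DSTYK and 1 line for each tumour type, and they are silent on whether replicates were grown separately. A p-value here therefore reflects how much these libraries vary, and that variation may be technical.

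Libraries held between 40525385 and 46528071 estimated counts. Of the UN-SCC679 libraries with empty pLENTI6, the first stood apart from the others, with a mean chi-square per gene of 11.23 and 12.74 against them, where the highest value of any other pair within a group was 4.816. Dstyk, the targeted gene, was at 42.8, 40.6 and 44.8 CPM (scaled within an experiment, by TMM factors, to the size of each library) in LLC with the empty vector and at 22.7, 24 and 22.5 CPM with sh3. It was at 36.4, 36.3 and 38 CPM in UN-SCC679 with empty TPLKO and at 26.6, 26.7 and 25.1 CPM with sh3, and at 29.6, 31 and 32.3 CPM with empty pLENTI6 and 37.2, 37.4 and 38.6 CPM with OE. Its log2 change was -0.89 (SE 0.044), -0.50 (SE 0.04) and 0.29 (SE 0.04), with adjusted p of 9.82e-10, 5.61e-07 and 0.000641, so Dstyk moved as labelled in each experiment, and least with OE. Defining markers of the labelled tumour types were partly missing: LLC held 0 of 6 alveolar and club cell markers and 0 of 8 squamous markers at 1 TPM or more, and 1 of 9 epithelial markers, Krt18 at 40.6 TPM with the empty vector and 41.2 TPM with sh3; Epcam, Cldn4 and Esrp1 were under 3 counts in both LLC groups. UN-SCC679 held 3 to 5 of 8 squamous markers at 1 TPM or more, among them not Krt5 or Dsg3. Of 9 epithelial markers, 3 were at that level in each UN-SCC679 group, among them not Epcam, Cdh1 or Cldn4. The line also held 1 of 6 alveolar and club cell markers. This was Nkx2-1, at 42.3 TPM with empty TPLKO, against 0 TPM in LLC with the empty vector. Markers of leukocytes, a possible source of MMP transcripts in tumours, summed to between 3.2 and 11.1 TPM over the 9 genes in any library. The macrophage marker Adgre1 was under 3 counts in every group, whereas Cd68 was at 2.7 to 6.78 TPM. With sh3, Csf1r rose in UN-SCC679 from 0.795 to 2.58 CPM (adjusted p = 3.86e-05) and Ly6g rose in LLC from 1.31 to 2.02 CPM (adjusted p = 0.0149). Ptprc, Cd3e, Cd79a, Itgam and S100a8 were under 1 TPM in each group. The 6 endothelial markers summed to between 0.525 and 1.78 TPM.

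MMPs are zinc-dependent proteases that are made as inactive precursors and cut collagens, gelatins, proteoglycans and other matrix and cell-surface proteins once the propeptide is removed. ADAMTS proteases are secreted relatives with thrombospondin repeats, some of which trim procollagen while others cut large proteoglycans such as aggrecan and versican. TIMPs bind the active site of these enzymes and block them, and TIMP2 also takes part in the activation of pro-MMP2 by MMP14 at the cell surface. In solid tumours a large part of the MMPs is made by stromal and inflammatory cells, which a culture of a tumour line lacks.

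After DSTYK was lowered in LLC, Mmp3 (stromelysin-1), Mmp13 (collagenase-3), both gelatinase genes and several ADAMTS genes rose, while Mmp14, Mmp28 and Timp2 fell. Of the 45 members, 25 passed the filter on low counts, and 16 of these were called at an adjusted p under 0.05, 12 higher and 4 lower. That share of the tested members, 64%, was below the share of all tested genes called, 72.6% (36.2% higher and 36.4% lower), so the count of calls by itself is near the background. With a change of at least 2-fold required as well, 8 members were called and all were higher, against 12.2% of all tested genes (8.07% higher and 4.15% lower). The median log2 change of the tested members was 0.45, against 0.01 over all tested genes.

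In UN-SCC679 the same construct was followed by higher Mmp19, Mmp9, Mmp2 and Adamts10 and by lower Mmp10, Timp2, Timp3 and Timp4. Here 30 members were tested and 23 called, 15 higher and 8 lower, or 76.7% of the tested members against 63.8% of all tested genes (31.8% higher and 32% lower). At least 2-fold changes were called for 9 members, 7 higher and 2 lower, against 10.3% of all tested genes (8.04% higher and 2.27% lower). The median log2 change was 0.35 for the tested members and 0.01 for all tested genes.

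When DSTYK was raised in UN-SCC679, Mmp28, Mmp19, Timp2 and Timp3 rose and Mmp14, Adamts14 and Timp4 fell, most of them by less than 2-fold. Of 27 tested members 15 were called, 9 higher and 6 lower, or 55.6% against 29.7% of all tested genes (14.6% higher and 15.2% lower). Only Mmp28 (higher) and Timp4 (lower) were called with a change of at least 2-fold, against 2.54% of all tested genes (0.816% higher and 1.72% lower). Without the library that stood apart, 15 members were called, 8 higher and 7 lower. Calls over all tested genes went from 2034 higher and 2119 lower to 2433 and 2506 in that fit. The median log2 change was 0.16 for the tested members and 0.00 for all tested genes. A member that passed the filter through the group where it is high had to differ, so these counts describe the tested members and not the family as a whole.

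**Figure D1:**
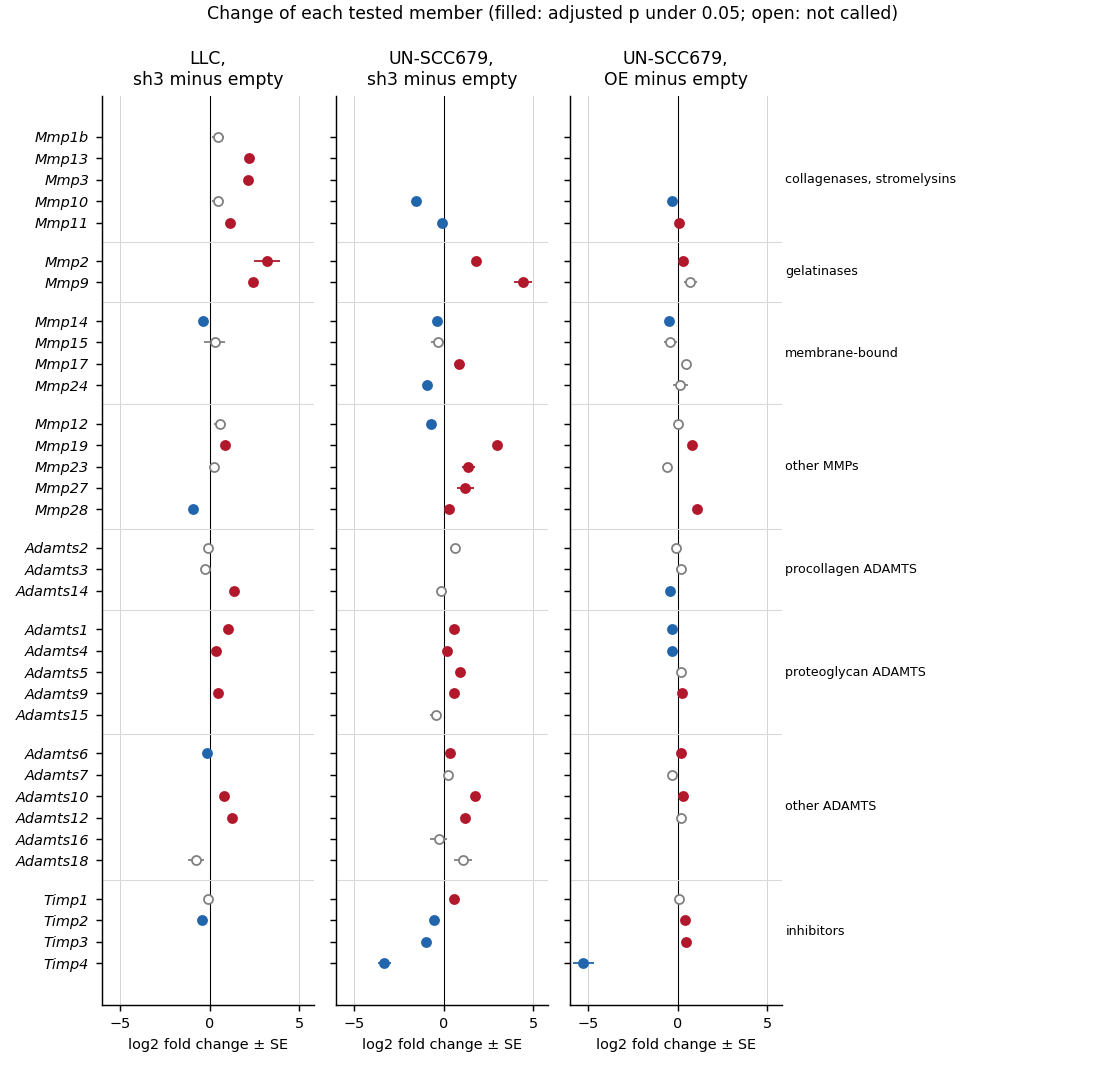
Log2 fold change (x axis, with standard error) of the 34 members tested in at least 1 of the 3 comparisons with an altered DSTYK, grouped by role; filled red and blue points were called higher and lower at an adjusted p under 0.05, and open points were not called. Mmp14 is lower in all 3 panels, and Timp2 and Timp3 lie to the left of 0 with sh3 and to the right with OE in UN-SCC679.

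The lines differed in which members they expressed. Levels of different genes are compared here as TPM, which is per transcript length. In LLC with the empty vector Mmp14 was the highest member at 217 TPM, followed by Timp2 at 93, Timp1 at 75.1, Mmp28 at 42.5, Mmp11 at 27.4 and Mmp3 at 25.4 TPM. In UN-SCC679 with empty TPLKO the order was Timp3 at 1436 TPM, Timp2 at 885, Mmp14 at 233, Timp1 at 104, Mmp11 at 62.7 and Mmp2 at 14.4 TPM. Inhibitor transcripts together held between 2410 and 2435 TPM in the UN-SCC679 libraries and between 167 and 170 TPM in the LLC libraries, while the summed MMP transcripts lay between 328 and 335 TPM and between 331 and 333 TPM.

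Between these empty-vector groups 34 members were tested and 31 called, 12 higher in LLC and 19 higher in UN-SCC679, against 82.9% of all tested genes (40.9% higher and 42% lower in LLC). With at least 2-fold required, 26 members were called, 12 higher in LLC and 14 higher in UN-SCC679, against 35.3% of all tested genes (14.6% and 20.7%). This compares 1 line with 1 line. The line, the strain and the match of each strain to the reference cannot be told apart. A member that passed the filter only through the line where it is high, such as Adamts7 or Mmp1b, had to differ. These counts therefore describe the tested members and not the family as a whole. Several members were close to an on or off pattern. Timp3 was at 1436 TPM in UN-SCC679 and 0.129 TPM in LLC, and Mmp3 at 0.0875 TPM in UN-SCC679 and 25.4 TPM in LLC. Adamts5, an aggrecanase, held 614 counts over the 3 UN-SCC679 libraries and 1 over the 3 LLC libraries. Adamts7, a protease of cartilage oligomeric matrix protein, held 543 counts in UN-SCC679 and 0 in every LLC library, which makes it at least 182-fold lower in LLC when 3 counts over the group are taken as the limit of a count of 0. Mmp1b held 55 counts in LLC and 0 in UN-SCC679, at least 18.2-fold lower in the latter by the same limit.

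**Figure D2:**
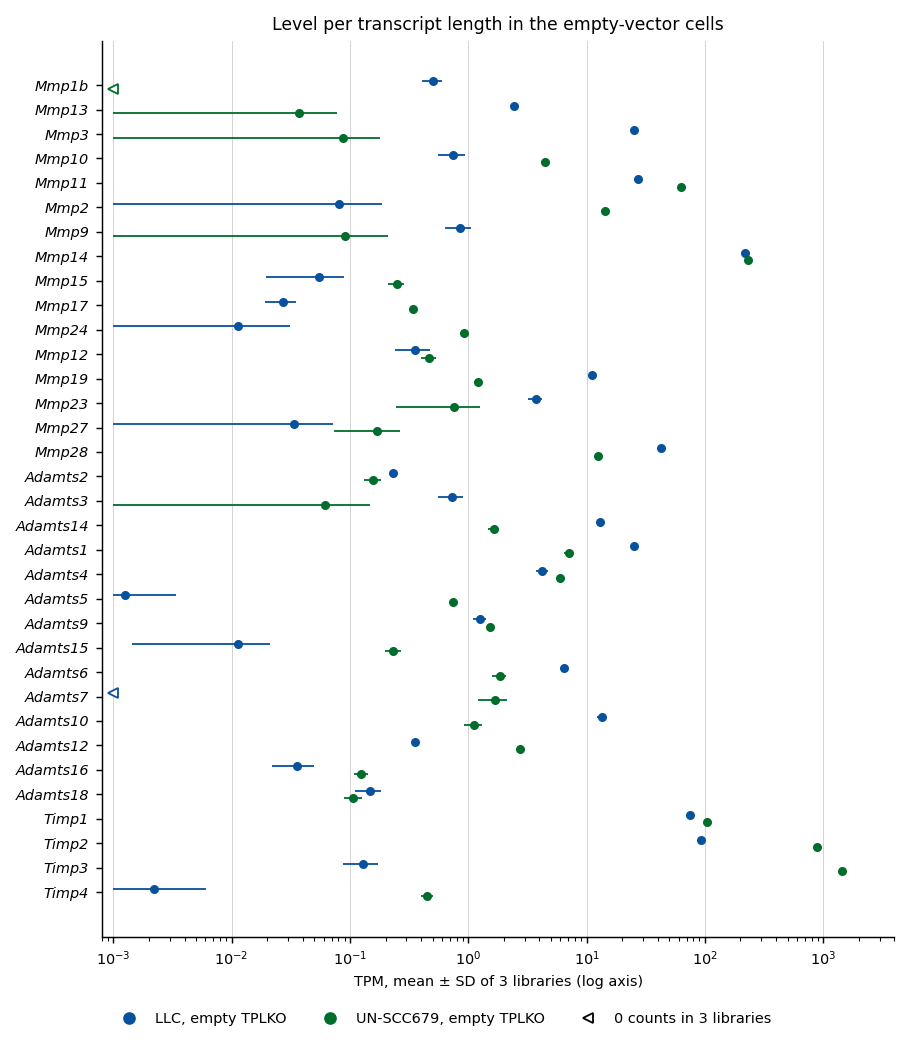
TPM (x axis, log scale, mean with SD of 3 libraries) in LLC and UN-SCC679 with empty TPLKO, for the 34 members tested in at least 1 comparison with an altered DSTYK. This set holds Mmp27 and not Adamts17, unlike the 34 tested between the empty lines. SD bars are cut at the left edge and triangles mark members with 0 counts in all 3 libraries. The lines lie close together for Mmp14 (217 and 233 TPM) and far apart for Timp3 (0.129 and 1436 TPM).

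**Figure D3:**
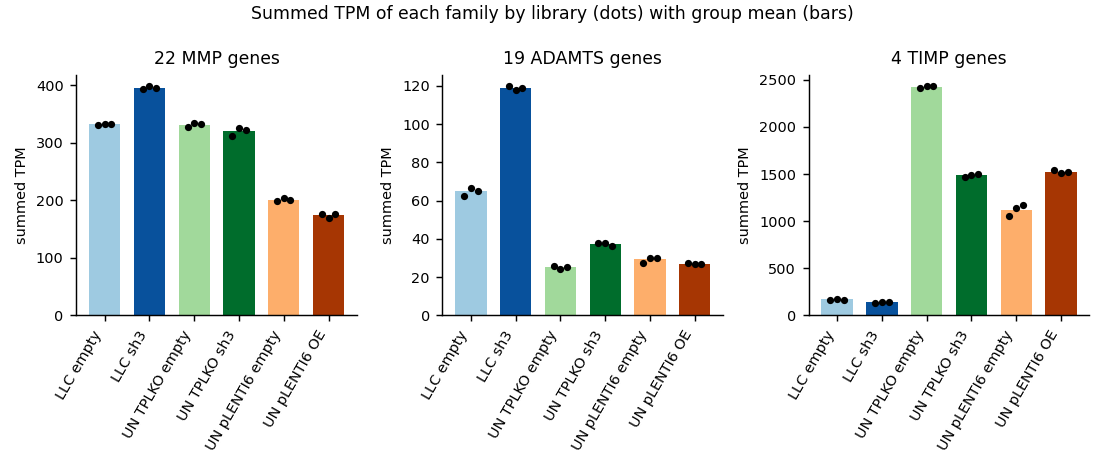
Summed TPM (y axis) of the 22 MMP, 19 ADAMTS and 4 TIMP genes in each library (dots) with the group mean (bars). ADAMTS sums lie between 62.3 and 66.8 TPM in LLC with the empty vector and between 118 and 120 TPM with sh3, and TIMP sums in UN-SCC679 between 2410 and 2435 TPM with empty TPLKO and between 1469 and 1497 TPM with sh3.

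The 11 members that were tested in none of the comparisons with an altered DSTYK were near 0 throughout. Adamts20 and Mmp7 had no count in any library, and 9 members, these included, stayed under 10 counts in every library. The other two were Adamts8 and Adamts17, with at most 11 and 14.1 counts in a library.

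Several stromelysin and collagenase genes sit together, though Mmp11 and Mmp14 lie elsewhere. On the GRCm38 build, 9 protein-coding genes lie within chr9:7272514-7699585, a span of 427 kb, and all 9 are members: in order Mmp13, Mmp12, Mmp1b, Mmp3, Mmp10, Mmp8, Mmp27, Mmp20 and Mmp7. RefSeq promoters on GRCm38.p6 were given for 31 of the 45 members (34 entries). Mmp2, Mmp9, Mmp19, Adamts4, Adamts5 and Adamts10 were among those without an entry, so the motif counts below do not cover them. The letters TGAGTCA, the consensus bound by AP-1, were searched on both strands in the 250 bases before each start and found in 6 of the 34 entries, 17.6%, against 4.46% of 32851 promoter entries of all genes. The 6 belong to Mmp3, Mmp7, Mmp10, Mmp12, Mmp13 and Mmp1b, so that 6 of the 9 cluster members and 0 of the 22 other members with an entry held a match. The match of Mmp12 lies before the second of its annotated starts. Other motifs searched the same way were AGGAAG, bound by ETS factors of the PEA3 group, in 41.2% of member entries and 29.5% of all, TATAAA in 23.5% and 12.4%, and an NF-kB motif (GGG, any 3 letters, TTCC) in 0% and 4.65%. A match is only a run of letters and says nothing on binding in these cells. The 100 bases before the start are shown for Mmp3 and Mmp13, which rose in LLC, for Mmp10, which fell in UN-SCC679, and for Mmp1b, which had 0 counts in UN-SCC679; capitals mark TGAGTCA or its reverse complement, 46, 35, 63 and 93 bases before the start.
Mmp3, chr9:7445722-7445821, plus strand: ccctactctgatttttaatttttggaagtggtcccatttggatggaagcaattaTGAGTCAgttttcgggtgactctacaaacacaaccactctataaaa
Mmp13, chr9:7272414-7272513, plus strand: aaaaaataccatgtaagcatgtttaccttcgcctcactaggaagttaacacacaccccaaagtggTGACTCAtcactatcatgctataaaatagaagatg
Mmp10, chr9:7502242-7502341, plus strand: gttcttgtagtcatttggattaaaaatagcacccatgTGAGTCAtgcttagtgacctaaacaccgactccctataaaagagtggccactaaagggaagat
Mmp1b, chr9:7388027-7388126, minus strand: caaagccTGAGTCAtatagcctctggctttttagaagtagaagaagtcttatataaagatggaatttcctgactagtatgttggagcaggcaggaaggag

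Mmp3 (stromelysin-1, which cuts proteoglycans and activates other pro-MMPs; chr9:7445822-7455975) was at 29.1, 26 and 25.6 CPM in LLC with the empty vector and at 119, 117 and 114 CPM with sh3. All sh3 libraries were far above all control libraries. The log2 change was 2.11 (SE 0.041, a 4.32-fold rise, adjusted p = 2.54e-13). In UN-SCC679 Mmp3 held between 7 and 17 counts per group of 3 libraries and was not tested. Mmp13 (collagenase-3, the main fibrillar collagenase of rodents; chr9:7272514-7283331) went from 4.22, 4.02 and 3.52 CPM to 17.1, 17.7 and 18.5 CPM in LLC. The groups did not overlap, and the log2 change was 2.18 (SE 0.079, 4.53-fold, adjusted p = 6.16e-11). It too was nearly silent in UN-SCC679, with 7 to 29 counts per group.

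Mmp10 (stromelysin-2; chr9:7502352-7510240) was higher in UN-SCC679 than in LLC, unlike Mmp3 and Mmp13. Mmp12 (134 counts against 82), Mmp27 (23 against 4) and Mmp20 (7 against 0) also had more counts in UN-SCC679 with empty TPLKO than in LLC with the empty vector. In UN-SCC679 it was at 4.51, 4.1 and 4.72 CPM with empty TPLKO and 1.48, 1.35 and 1.78 CPM with sh3, a fall in every sh3 library (log2 -1.53, SE 0.15, 2.89-fold lower, adjusted p = 3.10e-06). With OE it was also lower, 8.02, 8.17 and 7.58 CPM against 6.44, 6.43 and 6.56 CPM (log2 -0.29, SE 0.059, adjusted p = 0.00492). In LLC its 96 counts with the empty vector and 140 with sh3 gave a log2 change of 0.45 (SE 0.32, adjusted p = 0.219), which was not called. The sh3 effect on Mmp10 differed between the lines by 1.99 on the log2 scale (SE 0.34, adjusted p = 9.47e-05). Mmp12, the macrophage metalloelastase, was low in both lines; it was called in UN-SCC679 with sh3 (1.06 to 0.662 CPM, log2 -0.68, SE 0.26, adjusted p = 0.0365) and not in LLC (0.633 to 0.942 CPM, adjusted p = 0.151). Its counts need not follow the protein-coding form, since with empty TPLKO protein-coding transcripts took 5.19% of them and transcripts with retained introns 92%. Mmp1b in LLC was at 0.429 and 0.592 CPM (adjusted p = 0.21).

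The nearest tested genes on either side of the cluster had smaller log2 changes in LLC with sh3 than Mmp3 and Mmp13. The largest of these was 0.65 for Birc3 (adjusted p = 0.0159). It lay above the 0.57, 0.46 and 0.45 of the cluster members Mmp12, Mmp1b and Mmp10, which were not called. The nearest neighbours, Dcun1d5 and Tmem123, were expressed in both lines, at 71.8 and 116 CPM in LLC and at 105 and 257 CPM in UN-SCC679 with the empty vector. With sh3 in LLC their log2 changes were -0.14 and 0.42 (adjusted p of 0.000632 and 3.03e-09), against 2.11 and 2.18 for Mmp3 and Mmp13.

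**Figure D4:**
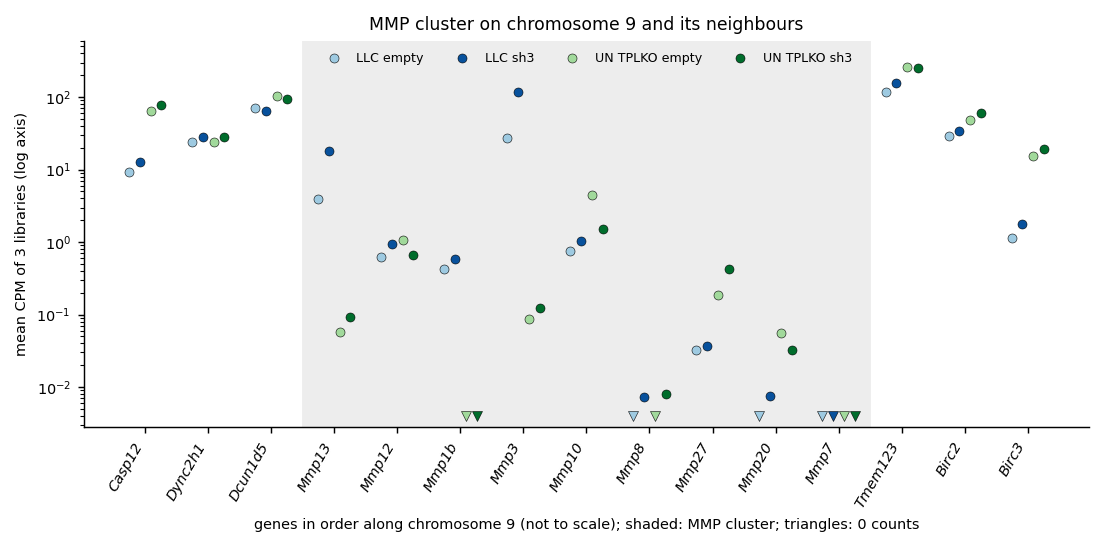
Mean CPM (y axis, log scale) of the 9 clustered MMP genes (shaded) and 3 neighbours on each side, in order along chromosome 9, in both lines with empty TPLKO and sh3; triangles mark 0 counts in the group. Mmp3 and Mmp13 are at 26.9 and 3.92 CPM in LLC and under 0.1 CPM in UN-SCC679 with the empty vector, whereas the neighbours are expressed in both lines.

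The gelatinases cut denatured collagen and collagen IV of basement membranes. Mmp9 (gelatinase B; chr2:164940780-164955850) rose in both lines with sh3. In LLC it was at 2.04, 1.28 and 1.39 CPM with the empty vector and 8.8, 8.18 and 8.17 CPM with sh3, with no overlap (log2 2.40, SE 0.15, 5.29-fold, adjusted p = 8.63e-09). In UN-SCC679 it went from 0, 4 and 9 counts to 103, 92 and 98 counts, a ratio of 23.1 (95% interval 13.3 to 43.9, counting error only; adjusted p = 1.19e-05). With OE the levels were 0.268 and 0.438 CPM and the change was not called (adjusted p = 0.186). Mmp2 (gelatinase A; chr8:92827291-92853420) was at 10.4, 10.9 and 9.81 CPM in UN-SCC679 with empty TPLKO and 34.9, 38.9 and 37.1 CPM with sh3. All sh3 libraries were higher (log2 1.83, SE 0.058, 3.56-fold, adjusted p = 1.56e-10). OE gave a smaller difference for Mmp2, from 11.1 to 13.5 CPM (log2 0.28, SE 0.053, adjusted p = 0.00335; the call was lost on a TPM scale). In LLC Mmp2 was close to absent, with 0, 3 and 1 counts with the empty vector and 12, 13 and 17 with sh3, a ratio of 10.1 (95% interval 3.65 to 38.7; adjusted p = 0.00127). Median log2 changes of all tested genes on chromosomes 2 and 8 in UN-SCC679 with sh3 were 0.10 and -0.19, small beside those of Mmp9 and Mmp2.

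Mmp14 (MT1-MMP, a membrane-bound collagenase that activates pro-MMP2; chr14:54431612-54445364) was the most abundant protease of the set in each group and fell in all 3 experiments. In LLC it was at 289, 286 and 292 CPM with the empty vector and 230, 225 and 224 CPM with sh3 (log2 -0.35, SE 0.017, adjusted p = 8.60e-10). In UN-SCC679 it was at 309, 309 and 311 CPM with empty TPLKO and 244, 241 and 241 CPM with sh3 (log2 -0.35, SE 0.018, adjusted p = 8.60e-09). OE libraries were at 141, 139 and 141 CPM against 197, 194 and 191 CPM with empty pLENTI6 (log2 -0.46, SE 0.026, adjusted p = 2.01e-06). No altered library overlapped its controls in any experiment. The sh3 effects in the lines differed by -0.00 on the log2 scale (SE 0.024, adjusted p = 0.964). Mmp14 fell slightly more with OE than with sh3 in UN-SCC679 (difference 0.11, SE 0.029, adjusted p = 0.00495), a call that the TPM scale and the fit without the count filter did not make. Of the other membrane-bound MMPs, Mmp17 rose (0.651 to 1.18 CPM, adjusted p = 0.0248) and Mmp24 fell (2.07 to 1.11 CPM, adjusted p = 0.00285) in UN-SCC679 with sh3; Mmp15 was called in none of the 3.

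Mmp19 (a secreted MMP of basement membrane and cartilage substrates; chr10:128790910-128800824) rose in all 3 experiments, most in UN-SCC679 with sh3. There it went from 1.98, 1.84 and 2.42 CPM to 17.4, 15.2 and 17.3 CPM (8.01-fold, SE 0.11 on the log2 scale, adjusted p = 4.60e-10). LLC moved from 21.1, 21.1 and 20.9 CPM to 39.1, 38 and 38 CPM (log2 0.87, SE 0.035, 1.82-fold, adjusted p = 1.69e-10). The sh3 level of UN-SCC679 thus stayed below the LLC control on the CPM scale, which was set within each experiment. OE moved Mmp19 from 0.949, 1.13 and 0.942 CPM to 1.66, 1.86 and 1.77 CPM (log2 0.80, SE 0.16, adjusted p = 0.00406). Mmp19 shares 22.3% of its exon bases with the opposite-strand gene Tmem198b; the kit keeps strand, and whether the counting used it is not given in the sources used here. Tmem198b changed by 0.03 in LLC and 0.57 in UN-SCC679 with sh3 on the log2 scale, and its part in the Mmp19 values was not tested.

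Mmp28 (epilysin, a secreted MMP of epithelia; chr11:83440768-83463071) moved in opposite directions in the lines. LLC fell from 79, 76.7 and 80.4 CPM to 41.3, 40.9 and 41.7 CPM with sh3 (log2 -0.93, SE 0.03, 1.91-fold lower, adjusted p = 1.81e-11), while UN-SCC679 rose from 23.2, 22.1 and 22.8 CPM to 25.9, 28.7 and 30.4 CPM (log2 0.32, SE 0.058, adjusted p = 0.000472). The difference of the effects was -1.25 (SE 0.065, adjusted p = 7.98e-11). With OE it rose from 3.82, 4.76 and 4.5 CPM to 9.35, 9.81 and 8.96 CPM (log2 1.10, SE 0.084, 2.14-fold, adjusted p = 1.42e-05). The opposite-strand gene 1700020L24Rik, which shares 12% of the Mmp28 exon bases, had log2 changes of -0.65, 0.17 and 0.84 in the 3 experiments; its part was not tested. Mmp28 was also far apart between the controls of UN-SCC679, 12.5 TPM with empty TPLKO and 2.42 TPM with empty pLENTI6.

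Mmp11 (stromelysin-3, which is activated by furin inside the cell; chr10:75923222-75936496) rose in LLC from 34.5, 34.7 and 31.9 CPM to 73.4, 72.4 and 73.5 CPM (log2 1.12, SE 0.035, 2.17-fold, adjusted p = 1.68e-11). In UN-SCC679 it differed little, 76.7 against 72.5 CPM with sh3 (log2 -0.08, adjusted p = 0.0266) and 51.7 against 55.4 CPM with OE (log2 0.10, adjusted p = 0.0225). Leaving out any 1 library except the first empty TPLKO library ended the sh3 call. The OE call was lost without the second empty pLENTI6 library or without any 1 of the OE libraries. Chchd10, on the opposite strand and sharing 5.58% of the Mmp11 exon bases, had log2 changes of 1.64, -1.43 and -0.82; its part was not tested. Mmp23 (a membrane-anchored MMP with a short ion-channel toxin-like domain; chr4:155650655-155653384) was at 0.628, 0.199 and 0.45 CPM in UN-SCC679 with empty TPLKO and 1.03, 1.12 and 1.17 CPM with sh3, without overlap (log2 1.38, SE 0.37, adjusted p = 0.00633). Mmp27, of the stromelysin group, rose from 23 to 55 counts over 3 libraries (ratio 2.45, 95% interval 1.48 to 4.18, adjusted p = 0.0456).

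**Figure D5:**
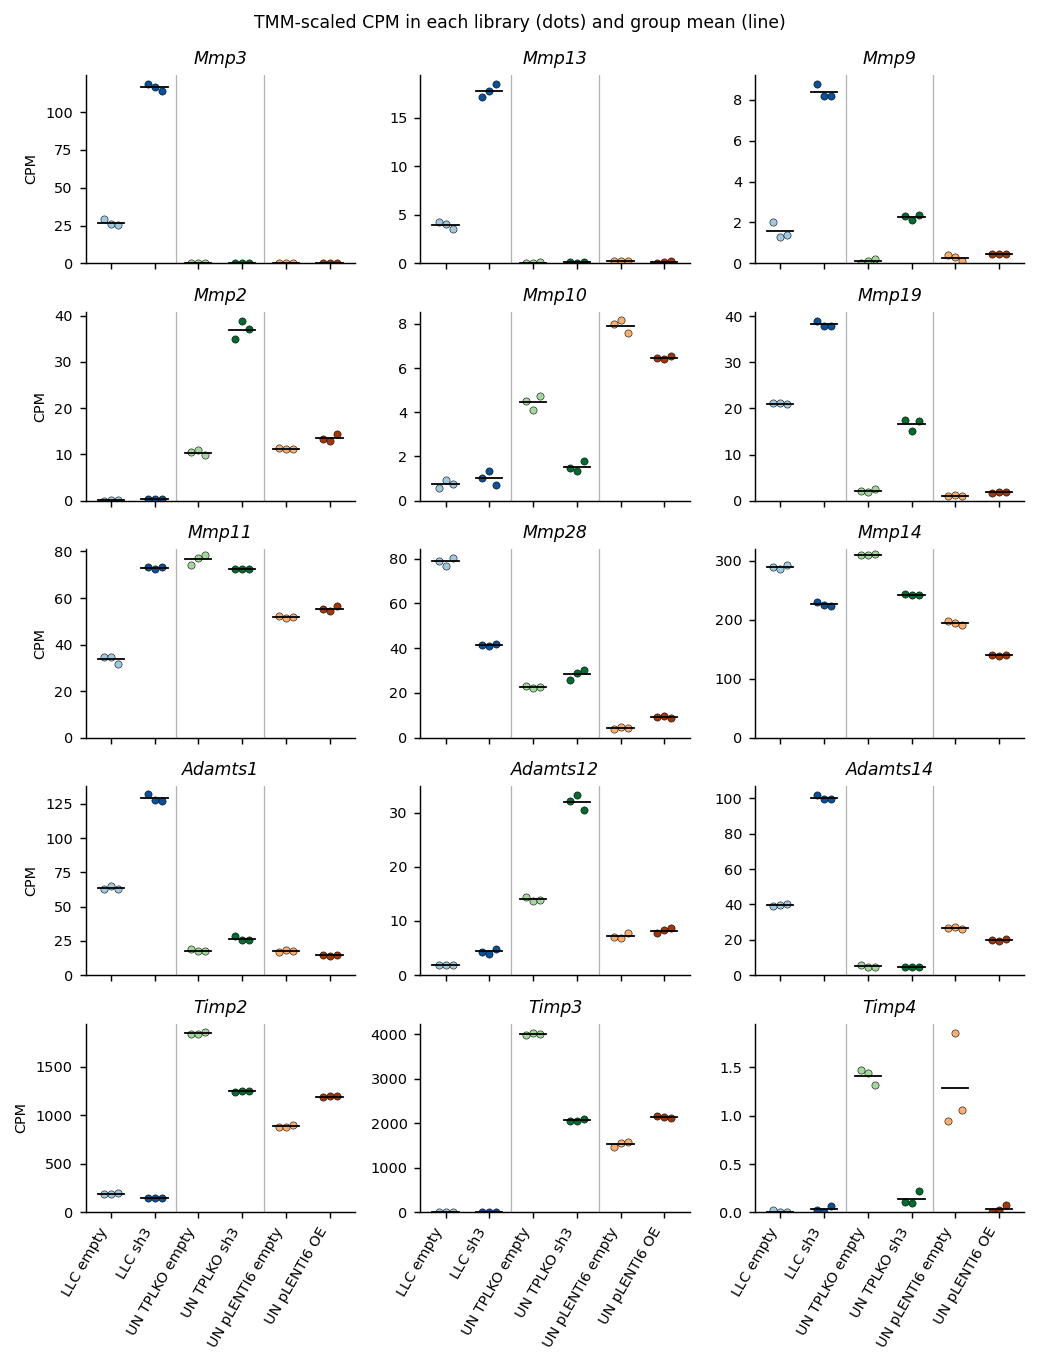
CPM (y axis, linear and from 0, scaled within each experiment) of 15 members in each library (dots) with group means (lines); vertical lines separate the 3 experiments. Mmp3 and Mmp13 are high in the LLC libraries with sh3 (114 to 119 and 17.1 to 18.5 CPM), and Timp3 is near 0 in all LLC libraries.

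ADAMTS genes that were called with sh3 were nearly all higher: 6 of 7 in LLC, of 10 tested, and 7 of 7 in UN-SCC679, of 13 tested. Over all tested genes 72.6% were called in LLC (36.2% higher) and 63.8% in UN-SCC679 (31.8% higher), so 7 calls of 10 and 7 of 13 are no more than the background. With OE, 6 of 11 tested were called, 3 higher and 3 lower, against 29.7% of all tested genes (14.6% higher and 15.2% lower). Summed ADAMTS transcripts lay between 62.3 and 66.8 TPM in LLC controls and between 118 and 120 TPM with sh3, and between 24.5 and 25.6 TPM and 36.4 and 37.9 TPM in UN-SCC679.

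Adamts14 (a procollagen N-proteinase; chr10:61197112-61273438) rose in LLC from 39.2, 39.8 and 40.3 CPM to 102, 99.5 and 99.7 CPM, all sh3 libraries above all controls (log2 1.34, SE 0.028, 2.53-fold, adjusted p = 4.34e-13). In UN-SCC679 with sh3 it was not called (4.98 against 4.43 CPM, log2 -0.17, SE 0.1, adjusted p = 0.176), and the effects differed by 1.50 (SE 0.076, adjusted p = 5.55e-11). With OE it fell from 26.4, 27.2 and 26 CPM to 19.9, 19.1 and 20.2 CPM (log2 -0.43, SE 0.042, adjusted p = 7.63e-05). The other procollagen proteinases, Adamts2 and Adamts3, were under 2 CPM in every group and were not called; Adamts3 was under the filter in UN-SCC679 with sh3.

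Of the proteoglycan-cutting members, Adamts1 (chr16:85793827-85803113) was at 62.8, 65.4 and 63 CPM in LLC controls and 132, 128 and 127 CPM with sh3 (log2 1.02, SE 0.025, 2.02-fold, adjusted p = 2.14e-12). It rose less in UN-SCC679, from 18.7, 17.8 and 17.3 CPM to 28.3, 25.6 and 25.8 CPM (log2 0.57, SE 0.055, adjusted p = 2.57e-06), where the median of all tested genes of chromosome 16 was 0.16. With OE it fell from 17.7 to 14.4 CPM (log2 -0.29, SE 0.049, adjusted p = 0.00173; the call was lost on a TPM scale). Adamts4 (aggrecanase-1; chr1:171250421-171260637) followed the same signs: 11.1 to 14.4 CPM in LLC (adjusted p = 0.00136), 15.3 to 17.3 CPM in UN-SCC679 with sh3 (adjusted p = 0.0268), and 9.02, 8.82 and 8.59 CPM to 6.97, 6.88 and 7.31 CPM with OE (log2 -0.32, SE 0.056, adjusted p = 0.0022). The UN-SCC679 sh3 call for Adamts4 was lost without the second empty TPLKO library and without the first sh3 library. Adamts5 rose in UN-SCC679 from 4.83 to 9.01 CPM (log2 0.90, SE 0.09, adjusted p = 3.78e-06). Adamts9, which also cuts versican, rose in LLC (5.08 to 6.93 CPM), in UN-SCC679 with sh3 (6.42 to 9.65 CPM) and with OE (11.3 to 13.5 CPM), with adjusted p of 0.000805, 4.16e-05 and 0.00558.

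Adamts12 (a protease of cartilage oligomeric matrix protein; chr15:11064790-11349231) rose in both lines. LLC went from 1.8, 1.87 and 1.84 CPM to 4.28, 3.94 and 4.9 CPM (log2 1.25, SE 0.14, 2.38-fold, adjusted p = 3.13e-06) and UN-SCC679 from 14.4, 13.6 and 13.9 CPM to 32.1, 33.3 and 30.5 CPM (log2 1.19, SE 0.05, 2.29-fold, adjusted p = 1.81e-09). The difference of these effects was 0.05 (SE 0.12, adjusted p = 0.747). Adamts10 (a protease of fibrillin microfibrils; chr17:33524204-33553782) was at 1.69, 1.79 and 2.32 CPM in UN-SCC679 controls and 6.04, 6.52 and 6.93 CPM with sh3 (log2 1.75, SE 0.14, 3.36-fold, adjusted p = 3.99e-07), where all tested genes of chromosome 17 had a median of 0.25. LLC rose from 24.6 to 42.6 CPM (log2 0.79, SE 0.037, adjusted p = 5.57e-10). Much of the Adamts10 signal came from transcripts annotated for decay or with retained introns, so its counts need not follow the protein-coding form: protein-coding transcripts took 6.37% to 31.5% of its counts, depending on the group. The rise of Adamts10 with OE, from 2.8 to 3.47 CPM (log2 0.31, SE 0.097, adjusted p = 0.0375), was not called by DESeq2 (adjusted p = 0.171), on a TPM scale, or without any 1 library except the second empty pLENTI6 library.

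Timp2 and Timp3 were far higher in UN-SCC679 than in LLC, Timp1 was 1.37-fold higher (104 against 75.1 TPM in the controls, adjusted p = 3.10e-07), and Timp2 and Timp3 changed in opposite directions after DSTYK was lowered and raised. Timp3 (a matrix-bound inhibitor that also blocks ADAM and ADAMTS proteases; chr10:86300372-86349506) was at 3996, 4042 and 4007 CPM in UN-SCC679 with empty TPLKO and 2059, 2052 and 2093 CPM with sh3. The groups were far apart (log2 -0.96, SE 0.013, 1.94-fold lower, adjusted p = 1.84e-13). With OE it rose from 1461, 1570 and 1586 CPM to 2176, 2140 and 2128 CPM (log2 0.48, SE 0.034, 1.4-fold, adjusted p = 8.94e-06). The lowering and raising effects differed by -1.44 (SE 0.038, adjusted p = 7.46e-13). The Syn3 gene, in which Timp3 lies on the other strand, shares 21.3% of the Timp3 exon bases and was at 5.32 to 9.67 CPM in UN-SCC679, far below Timp3. LLC held 4 to 13.2 counts of Timp3 per library, under the filter.

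Timp2 (chr11:118301069-118355740) showed the same signs in UN-SCC679: 1842, 1840 and 1861 CPM fell to 1243, 1250 and 1256 CPM with sh3 (log2 -0.56, SE 0.014, 1.48-fold lower, adjusted p = 2.01e-11), and 880, 885 and 905 CPM rose to 1185, 1201 and 1195 CPM with OE (log2 0.42, SE 0.025, 1.34-fold, adjusted p = 2.56e-06). These effects differed by -0.99 (SE 0.026, adjusted p = 6.43e-13). In LLC it fell from 193, 188 and 195 CPM to 143, 144 and 143 CPM (log2 -0.42, SE 0.019, adjusted p = 4.78e-10). Libraries of the 2 groups did not overlap in any of these comparisons. The controls of UN-SCC679 themselves differed, however. Timp3 was at 1436 TPM with empty TPLKO and 567 TPM with empty pLENTI6, and Timp2 at 885 and 429 TPM, differences of 1.39 (SE 0.033) and 1.06 (SE 0.025) on the log2 scale, larger than the changes with sh3 or OE. Vector and doxycycline differ between those controls, culture history may differ too but is not given, and these cannot be told apart. Over the 28 members tested between them, 21 were called, 14 higher and 7 lower with TPLKO, against 68.7% of all tested genes (33.3% higher and 35.4% lower). At least 2-fold differences were called for 11 members, 9 higher and 2 lower with TPLKO, against 14.4% of all tested genes (6.29% and 8.12%). Here too, a member that passed the filter only through the group where it is high had to differ.

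Timp1 (an inhibitor of most secreted MMPs; chrX:20870166-20874735) rose in UN-SCC679 with sh3, from 48.1, 48.2 and 47.7 CPM to 69.5, 74.9 and 70.4 CPM (log2 0.58, SE 0.034, 1.49-fold, adjusted p = 3.29e-08). LLC libraries overlapped at 35.9, 36.1 and 33.6 CPM and 31.7, 35.2 and 32.8 CPM (log2 -0.08, SE 0.045, adjusted p = 0.11), and the effects differed by -0.67 (SE 0.059, adjusted p = 5.40e-08). Without the third control library or without the second sh3 library the LLC fall was called, at -0.12 and -0.13 (adjusted p of 0.0344 and 0.0207). OE was not called (57.9 and 60.8 CPM, adjusted p = 0.139). Timp4 (an inhibitor best known from the heart; chr6:115241892-115252205) was scarce and fell in both UN-SCC679 experiments. It held 61.4, 65 and 52.6 counts with empty TPLKO and 5, 4 and 9.03 with sh3, a ratio of 9.7 (95% interval 5.97 to 16.7; adjusted p = 6.74e-06). With empty pLENTI6 it held 38.1, 84.3 and 46 counts and with OE 0, 1 and 3.04, a ratio of 41.5 (95% interval 15.9 to 154; adjusted p = 0.000141). Summed inhibitor transcripts lay between 1469 and 1497 TPM with sh3 in UN-SCC679, between 1054 and 1169 TPM with empty pLENTI6 and between 1515 and 1545 TPM with OE, and in LLC with sh3 between 136 and 141 TPM.

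The members called with sh3 in both lines could be set side by side because the experiments share no library. Of 21 members tested in both, 13 were called in both: 8 higher in both (Adamts1, Adamts4, Adamts9, Adamts10, Adamts12, Mmp2, Mmp9 and Mmp19), 2 lower in both (Mmp14 and Timp2), Mmp11 higher in LLC and lower in UN-SCC679, and Adamts6 and Mmp28 the other way. The share higher in both was 38.1% of the members and 15.2% of the 12834 genes tested in both, and the share lower in both was 9.52% and 17.1%. Of the 8 higher in both, Mmp2 in LLC and Mmp9 in UN-SCC679 passed the filter only through the sh3 group. Their direction in that line was fixed by the filter, so the share of 38.1% rests in part on it. The difference between the lines was called for 17 of 35 members, 9 with the larger value in LLC and 8 in UN-SCC679, against 60% of all tested genes (28.1% and 31.9%). In UN-SCC679, 26 members were tested with sh3 and with OE and 14 called in both. Of these, 6 were higher in both (Adamts6, Adamts9, Adamts10, Mmp2, Mmp19 and Mmp28), 3 lower in both (Mmp10, Mmp14 and Timp4), and 5 opposite: Adamts1 and Adamts4 rose with sh3 and fell with OE, and Mmp11, Timp2 and Timp3 did the reverse. Of the 13430 genes tested in both experiments, 6.9% were higher in both, 7.48% lower in both, 4.39% higher with sh3 and lower with OE, and 4.86% the reverse. Timp4 passed the filter in both experiments only through the empty-vector group, so its direction was fixed by the filter. The effects of lowering and raising differed for 19 of 31 members, 14 with the larger value after lowering and 5 after raising, against 51.9% of all tested genes (26.1% and 25.8%).

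Genes that act with these proteases were counted from lists. Over all tested genes, 72.6% were called in LLC (36.2% higher and 36.4% lower). The share was 63.8% in UN-SCC679 with sh3 (31.8% and 32%) and 29.7% with OE (14.6% and 15.2%). List counts here and in the next paragraphs stand beside these shares, and no list was tested as a set. Of 11 genes of plasminogen activation, which feeds MMP activation, 9 were tested in LLC with 6 higher and 2 lower, 8 in UN-SCC679 with sh3 with 6 higher and 2 lower, and 8 with OE with 1 higher and 1 lower. Plat, tissue plasminogen activator, rose in UN-SCC679 with sh3 from 5.47 ± 0.547 to 20 ± 0.931 CPM (SD, n = 3; log2 1.87, adjusted p = 2.18e-09 by edgeR). Of 14 genes that activate or clear MMPs, 7 were tested in LLC (1 higher, 4 lower), 7 in UN-SCC679 with sh3 (3 higher, 3 lower) and 8 with OE (2 higher, 2 lower). Lrp1, an endocytic receptor for MMP and TIMP complexes, fell with sh3 in both lines, from 918 to 586 CPM in LLC (log2 -0.65, adjusted p = 6.12e-12) and from 1429 to 1003 CPM in UN-SCC679 (log2 -0.51, adjusted p = 7.24e-10). Furin, the proprotein convertase, rose with sh3 in UN-SCC679 from 82.4 to 128 CPM (log2 0.63, adjusted p = 3.53e-09) and fell with OE from 119 to 105 CPM (log2 -0.19, adjusted p = 0.00164).

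A list of 11 genes held ADAM sheddases and Rhbdf1 and Rhbdf2, iRhom proteins that carry ADAM17 to the cell surface. Of these, 9 were tested in LLC (6 higher, 2 lower), 9 in UN-SCC679 with sh3 (6 higher, 3 lower) and 8 with OE (1 higher, 3 lower). Over all tested genes 72.6%, 63.8% and 29.7% were called in these comparisons. Adam8 rose in LLC from 6.33 to 21.9 CPM (log2 1.79, adjusted p = 5.31e-11), and Adam12 fell in UN-SCC679 both with sh3 (161 to 104 CPM, log2 -0.63, adjusted p = 1.35e-09) and with OE (111 to 71.3 CPM, log2 -0.64, adjusted p = 1.62e-05). The 7 ADAMTS-like genes and papilin, which resemble ADAMTS proteins without the protease domain, had 4 tested in LLC (2 higher, 1 lower) and 6 in each UN-SCC679 experiment (3 higher and 1 lower with sh3, 4 higher and 0 lower with OE). Adamtsl1 rose from 0.414 to 8.39 CPM with sh3 (20.3-fold, adjusted p = 1.26e-09) and from 2.19 to 7.51 CPM with OE (3.43-fold, adjusted p = 1.51e-06). Among 11 ADAMTS substrates, 2 were higher and 5 lower of 7 tested in LLC, 4 higher and 1 lower of 7 in UN-SCC679 with sh3, and 2 higher and 0 lower of 6 with OE. Vcan, the proteoglycan versican, fell in LLC from 952 to 299 CPM (log2 -1.67, adjusted p = 3.09e-16) and rose with OE from 50.7 to 91.9 CPM (log2 0.86, adjusted p = 4.85e-05). Col1a1, a procollagen chain, rose in UN-SCC679 with sh3 from 523 to 1081 CPM (log2 1.05, adjusted p = 7.78e-12).

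Transcription factors with known sites in MMP promoters were taken as a list of 17: AP-1 and ETS factors, Runx1, Runx2, the NF-kB subunits Nfkb1 and Rela, and Stat3. In LLC 10 were higher and 5 lower of 16 tested, in UN-SCC679 with sh3 9 higher and 5 lower of 17, and with OE 2 higher and 7 lower of 17. The shares of all tested genes called, 72.6%, 63.8% and 29.7%, stand beside these counts and those of the markers below. Jun, a subunit of AP-1, rose in LLC from 39.1 to 64.2 CPM (log2 0.71, adjusted p = 4.48e-10) and fell in UN-SCC679 with sh3 from 41.6 to 28.2 CPM (log2 -0.56, adjusted p = 1.08e-06). The other AP-1 genes of the list were split in UN-SCC679 with sh3. Fos, Fosb, Fosl1 and Junb were called higher (log2 1.09, 0.95, 0.50 and 0.76), and Fosl2 and Jund lower (-0.41 and -0.46). In LLC Fosb, Fosl1, Fosl2, Junb and Jund were called higher (log2 2.60, 0.14, 0.14, 0.55 and 0.40), and Fos was not tested. Etv1, of the PEA3 group, rose in UN-SCC679 with sh3 from 5.22 to 22.4 CPM (log2 2.10, adjusted p = 2.67e-10), and Etv4 fell with OE from 29.6 to 20 CPM (log2 -0.57, adjusted p = 5.88e-05). Markers of mesenchymal cells, a cell state in which many of these proteases are expressed, were 6 higher and 4 lower of 11 tested in LLC, 7 higher and 2 lower of 10 in UN-SCC679 with sh3 and 4 higher and 1 lower of 9 with OE, with summed levels of 1970 to 2016 and 1853 to 1900 TPM, 8217 to 8486 and 7618 to 7745 TPM, and 4658 to 4864 and 4553 to 4692 TPM in controls and altered cells. Squamous markers were 4 higher and 1 lower of 6 tested in UN-SCC679 with sh3 (summed levels of 105 to 113 and 115 to 118 TPM). With sh3 Trp63 was 6.13-fold and Krt14 4.58-fold higher. Pkp1, the squamous marker with the highest TPM in the empty TPLKO cells, fell from 202 to 175 CPM (adjusted p = 5.60e-06). Sox2 was not called (35.3 and 34 CPM, adjusted p = 0.478). With OE 4 were higher and 1 lower of 6 (156 to 163 and 176 to 181 TPM), and Trp63 was 2.19-fold higher there too. In LLC 1 was tested and 0 called. Epithelial markers were 0 higher and 1 lower of 4 in LLC (41 to 46.4 and 41.9 to 43.7 TPM), 2 higher and 2 lower of 4 in UN-SCC679 with sh3 (545 to 569 and 342 to 359 TPM) and 0 higher and 3 lower of 3 with OE (1007 to 1045 and 821 to 862 TPM). Whether a shift in cell state, or in the mix of cells within a culture, had a part in the protease changes was not tested, and fewer cells making a transcript cannot be told apart from less of it in each cell.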

How the data were processed

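RNA of 18 libraries was measured by stranded mRNA sequencing with 75-base reads, per the labels' protocols. The authors deposited estimated counts for each transcript; per the submitters' processing notes the authors used kallisto and sleuth with the build mm10, without versions. The effective transcript lengths, another deposited column, were used for TPM; the deposited TPM values were not used. Kallisto shares ambiguous reads among transcripts, so counts of overlapping genes are uncertain. Whether strand entered the counting is not given in the sources used here.

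Of 118489 listed transcripts, 116816 were assigned to a gene with GENCODE M21 (GRCm38, also called mm10). The 1673 others, 0.515% to 0.593% of a library's counts, were not used. The estimated counts of a gene's transcripts were added and then rounded. Each altered group was compared with its own empty-vector group, 3 libraries against 3, with edgeR 4.0.16 in R 4.3.3: TMM scaling, the default filter (minimum count 10, total 15), the quasi-likelihood test and Benjamini-Hochberg adjustment over all tested genes. Every adjusted p is from this test unless another tool is named. A gene was called at an adjusted p under 0.05, and standard errors were derived from the F statistic. Differences between effects were interaction terms over 12 libraries. Intervals of count ratios and the limit of 3 counts for a count of 0 cover counting error only, since reads carry no molecular identifiers. The test was checked on simulated counts for LLC with sh3, for OE and for the difference between lines. Changes were simulated only in well-counted genes, so the check does not cover calls at few counts.

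The members and lists were chosen with earlier results of these data known. Members named with values are Dstyk, the TIMPs, in each DSTYK comparison up to 8 members with the largest change among called members with a mean of at least 1 CPM in a group, and the 6 members with the highest TPM in each line; of each pathway list, the 2 called genes with the smallest adjusted p in each comparison, of which not all are named. Other members, and other values of listed genes such as Jun in UN-SCC679, were chosen after their values were seen. Alternatives were DESeq2 1.42.0, limma 3.58.1 on log2(TPM + 1) and log2(TPM + 0.1), other scalings and filters, an effective-length offset, 1 fit of all groups, a replicate block, and leaving out each library.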

Additional observations from a re-analysis of the deposited data

Results flagged for a closer look

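The effect of sh3 differed between LLC and UN-SCC679 for 17 members by edgeR's interaction test, given here as the LLC effect minus the UN-SCC679 effect on the log2 scale. Of these, 12 are members named by the rule that passed the filter in both lines. Their positive differences were those of Mmp10 at 1.99 (adjusted p = 9.47e-05) and Adamts14 at 1.50 (5.55e-11), followed by Mmp2 at 1.35 (0.048), Mmp11 at 1.19 (1.99e-12), Adamts1 at 0.45 (3.18e-06) and Timp2 at 0.14 (4.51e-05). Negative differences were found for Mmp19 at -2.14 (4.72e-11), Mmp9 at -2.03 (0.00236), Mmp28 at -1.25 (7.98e-11), Mmp23 at -1.14 (0.0129), Adamts10 at -0.96 (2.13e-06) and Timp1 at -0.67 (5.40e-08). Mmp2 rests on 4 counts in the LLC controls, and Mmp9 on 13 counts in the UN-SCC679 controls. The other 5 were Timp4 at 4.90 (0.00609) and Timp3 at 1.66 (6.56e-05), which were under the filter in LLC with 1 and 20 counts in its controls, Mmp12 at 1.24 (0.0233), Adamts6 at -0.52 (0.000361) and Adamts18 at -1.82 (0.0352).

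The effect of lowering DSTYK in UN-SCC679 differed from that of raising it for 19 members, given as the sh3 effect minus the OE effect on the log2 scale. Of these, 16 are members named by the rule that passed the filter in both experiments. Their positive differences were 3.71 for Mmp9 (adjusted p = 0.00067), 2.20 for Mmp19 (1.49e-07), 1.95 for Mmp23 (0.0023), 1.55 for Mmp2 (8.88e-10), 1.44 for Adamts10 (4.92e-06), 1.01 for Adamts12 (1.49e-07), 0.86 for Adamts1 (1.91e-07), 0.51 for Adamts4 (0.000192), 0.51 for Timp1 (4.61e-07), 0.26 for Adamts14 (0.0205) and 0.11 for Mmp14 (0.00495). Negative differences were -1.44 for Timp3 (7.46e-13), -1.24 for Mmp10 (2.53e-06), -0.99 for Timp2 (6.43e-13), -0.78 for Mmp28 (2.48e-05) and -0.18 for Mmp11 (0.00134). The other 3 were Adamts5 at 0.70 (0.00169), Adamts7 at 0.54 (0.0123) and Adamts9 at 0.32 (0.00729). The 2 experiments differ in vector and doxycycline as well as in DSTYK, and these cannot be told apart.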

How the results depend on the processing

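Of 1427 values for named members under the alternatives, 1351 kept direction and side of the threshold, 69 fell short of it, 4 passed it and 3 reversed. Reversals concerned the difference of the sh3 effect between lines: Mmp2 was at -1.41 with limma on log2(TPM + 1) and -0.48 on log2(TPM + 0.1), and Mmp9 at 0.48 on log2(TPM + 1), where the pseudocount exceeds the level in at least 1 of the lines. Counts of members with at least 2-fold calls went to 5 in LLC (from 8), 5 in UN-SCC679 with sh3 (from 9) and 0 with OE (from 2) with limma on log2(TPM + 1), and to 1 with OE under a filter of 1 CPM in 3 libraries, which tests fewer members. With limma on log2(TPM + 0.1), 8 members were called with OE (from 15), 4 higher and 4 lower. Over all tested genes that fit called 1766 higher and 1240 lower (from 2034 and 2119). The cause was not tested. Leaving out 1 library at a time gave 15 to 17 called members in LLC, 18 to 21 in UN-SCC679 with sh3 and 12 to 15 with OE, with 8, 8 to 10 and 2 at 2-fold; the 4 other counts were 14 to 17 (difference between lines), 18 to 21 (lowering against raising), 30 to 31 (between the empty lines) and 19 to 23 (between the empty UN-SCC679 groups). Calls most often lost were the small ones: Mmp11 in UN-SCC679, Adamts10 with OE, Adamts4 with sh3 in UN-SCC679, and the line difference of Mmp2.

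Replicate numbers did not pair the samples: deviations of same-numbered libraries correlated between -0.219 and 0.26, and most libraries correlated best with another number. With a replicate block, 16 members were called in LLC, 21 in UN-SCC679 with sh3 and 14 with OE, and the OE call of Adamts10 (adjusted p = 0.0611) and the line difference of Mmp2 (0.0523) were lost. Depth limits the members under about 1 CPM, whose ratios rest on a few counts.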

Other observations

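Adamts7 had 0 counts in LLC, and 2 genes near it, Tbc1d2b and Ctsh, had fewer than 10 over each LLC group. Tbc1d2b, whose gene overlaps the end of Adamts7 on the opposite strand (chr9:90202027-90270804), held 3 and 3 counts over the LLC groups with the empty vector and sh3, and 5626, 6369, 5012 and 5465 counts over the 4 UN-SCC679 groups. Morf4l1, the next protein-coding gene before Adamts7, held 30499 and 28972 counts in LLC and 28113 with empty TPLKO in UN-SCC679. Ctsh, the gene before that, held 2 and 7 counts in LLC and 1147 with empty TPLKO in UN-SCC679, and Tmed3, 3 genes further out, 5200 and 5687 counts in LLC. On the other side, Zic1, Zic4 and Plscr5 were at or under 14 counts in every group and carry no information, and Plscr1 held 13332 and 12930 counts in LLC. These genes were looked up after the value of Adamts7 was seen.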
